A study of Mus musculus with 27 samples.

Results

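Foxp3- thymocytes of BALB/c mice with low CD24 were compared with Foxp3- thymocytes with intermediate CD24, the last of the CD24 steps that the study sorted. The comparison was chosen with earlier results of these data known. It takes 6 of the 27 arrays by their labels: 3 of Foxp3-GFP- CD24low cells (CD24lo) and 3 of Foxp3-GFP- CD24intermediate cells (CD24int). On each, 18194 genes were measured. All groups come from animals in which GFP reports Foxp3, and the series title describes the GFP-negative thymocytes as CD4 single-positive and CD25-. The labels attach the word Treg to these cells, while the series design calls them the conventional T cell counterparts of Foxp3+ Tregs, and they are treated as conventional here. Groups used beside them were the Foxp3- CD24hi thymocytes that precede CD24int, the naive T cells of lymph node, and the Foxp3+GFP+ CD24int and CD24lo thymocytes, with 3 arrays each. Age, sex, number of animals and whether animals were pooled are not given in the sources used here, so each p-value reflects only how far these samples spread, which may be technical in part. From 50 ng of total RNA per sample, biotinylated RNA was made and hybridised to 3' expression arrays.

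CD24 is a small surface glycoprotein that is abundant on newly selected single-positive thymocytes and is lost as they mature and gain the ability to leave the thymus. The CD24lo gate can also hold innate-like T cells, such as NKT and gamma delta T cells, which take on effector programmes inside the thymus, may stay there, and are marked by the transcription factor PLZF, encoded by Zbtb16, and by receptors first described on natural killer (NK) cells. Innate-like cells with T-bet make interferon gamma, and those with PLZF and GATA3 make interleukin 4.

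The labels were first set against the genes that define them, on a log2 intensity scale used for all levels below. Cd24a, the gene behind the gate and so no finding, was at 10.75, 10.84 and 11.20 in CD24hi, 7.41, 8.44 and 8.77 in CD24int and 5.08, 6.62 and 6.32 in CD24lo, in the order of the gates and with no overlap. Foxp3 read 4.03, 3.54 and 3.89 in CD24int and 3.82, 3.98 and 3.68 in CD24lo, against means of 10.07 and 9.90 in the Foxp3+ gates, and Il2ra, which encodes CD25, read from 3.85 to 4.55 against 10.26 and 10.08. Cd4 was at 9.32, 8.86 and 9.15 in CD24int and at 8.34, 8.24 and 8.25 in CD24lo, and the T cell receptor subunit gene Cd3e stayed between 10.56 and 10.91. The levels of Cd24a, Foxp3 and Il2ra followed the labels, while 2 gamma delta receptor genes, described next, were high in cells labelled CD4 single-positive.

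The CD24int arrays differed among themselves. Replicate 3 had the highest Cd24a and was the lowest of the 3 for 54.2% of the genes that rose at least 2-fold, against 32.1% of all genes. Those genes were chosen with these same arrays. Their median levels on CD24int replicates 1, 2 and 3 were graded, at 5.94, 5.69 and 5.50, and replicate 1 had the lowest Cd24a. Without replicate 3, 1214 genes rose and 584 fell, and values without it are given beside many of the results. In CD24lo, replicate 1 had the least Cd24a, and without it the counts were 1230 and 637. Pairwise correlations between replicates across genes ran from 0.992 to 0.995 in CD24int and from 0.992 to 0.996 in CD24lo. Array medians of all 27 arrays lay between 30.3 and 32.0 intensity units. Albumin RNA was seen on 1 array of CD24hi (Alb at 11.65, against 3.53 to 4.23 on the arrays of CD24int and CD24lo).

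Between CD24int and CD24lo, 2182 of 18194 genes passed at an adjusted p under 0.05 (12.0%, limma's moderated test with Benjamini-Hochberg adjustment over all genes). Of these, 1430 rose (7.86%) and 752 fell (4.13%), and at a minimum of 2-fold 474 rose (2.61%) and 132 fell (0.726%). Rises made up 65.5% of the passing genes, but 52.7% after quantile normalization, with 1234 up and 1109 down, so the balance of directions depends on the scaling. With the replicate number as a block, 2107 rose and 1300 fell (11.6% and 7.15%). In 4440 genes (24.4%) the 3 and 3 arrays did not overlap, and the median difference over all genes was 0.014.

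The largest rises, several of them in genes of innate-like and NK-type lymphocytes, were in Prg4, Klrb1a, Klra5, Trgv4, Trgv1, Il4, Jag1, Ctla2b, Itgae, App, Spry2, 5830411N06Rik, Cst7, Niban1 and Zbtb16, from 4.85 down to 4.00 on the log2 scale with no added constant. The order depends on that choice: with a pseudocount of 16 intensity units, Trgv4 (4.54), Trgv1 (4.47), Klra5 (4.23) and Itgae (4.09) lay above Prg4 (3.92) and Klrb1a (3.39). Klrb1a encodes NKR-P1A, a lectin-like receptor of NK and NKT cells. It read 3.13, 2.98 and 3.02 in CD24int and 7.60, 8.06 and 8.01 in CD24lo, a rise (log2 difference 4.85 ± 0.17 SE, adjusted p = 6.71e-16) whose size rests on very low CD24int levels with no detection call behind them. The CD24int arrays lay close to the CD24hi arrays, at 2.56 to 2.74, and to lymph node naive cells, at 2.70 to 3.05, and the 3 CD24lo arrays were the highest of these 4 groups. Without CD24int replicate 3 the difference was 4.84. Other probe sets of some of these genes gave other differences, 1.64 to 4.10 for Zbtb16, 0.24 to 2.98 for Jag1, the gene of a Notch ligand, 0.15 to 2.88 for App, the amyloid precursor gene, and 0.83 for Spry2, a feedback inhibitor of ERK signalling.

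Zbtb16 went from 7.52, 7.28 and 5.88 in CD24int to 11.17, 10.91 and 10.61 in CD24lo, 16.0-fold higher (4.00 ± 0.39, adjusted p = 3.93e-08). Its CD24int arrays were uneven, with replicate 3 far below the other two, and the difference was 3.50 without it. Il4, the signature cytokine gene of type 2 helper and many NKT cells, read 5.87, 4.94 and 3.73 and then 10.00, 9.09 and 9.10 (4.55 ± 0.38, adjusted p = 2.59e-09, and 3.99 without CD24int replicate 3). Replicate 3 was again the lowest of CD24int. In the first step, from CD24hi to CD24int, 911 genes passed (5.01%), of which 411 rose (2.26%) and 500 fell (2.75%). There Zbtb16 rose by 1.71 (adjusted p = 0.0076) and Il4 did not (1.16, adjusted p = 0.085), values that share the CD24int arrays with those of the second step.

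Of 25 symbols listed for gamma delta T cell receptor genes, some of them older names of the same genes, 2 were measured by a single-symbol probe set. Both genes rose. Trgv4, a variable segment of the gamma chain, read 8.49, 7.82 and 6.85 in CD24int and 12.40, 12.30 and 12.42 in CD24lo (4.65 ± 0.41, adjusted p = 7.58e-09), and its other probe sets gave 4.59 and 4.92. Trgv1 read 8.57, 8.12 and 6.43 and then 12.38, 12.28 and 12.24 (4.59 ± 0.46, adjusted p = 5.82e-08). For both genes the 3 CD24lo arrays lay close together while the CD24int arrays spread, and without CD24int replicate 3 the differences were 4.22 and 3.95. Gamma chain segments can be rearranged and transcribed in alpha beta T cells too, and these probe sets do not count gamma delta cells. In bulk samples, more cells of a type and more RNA per cell cannot be told apart.

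**Figure D1:**
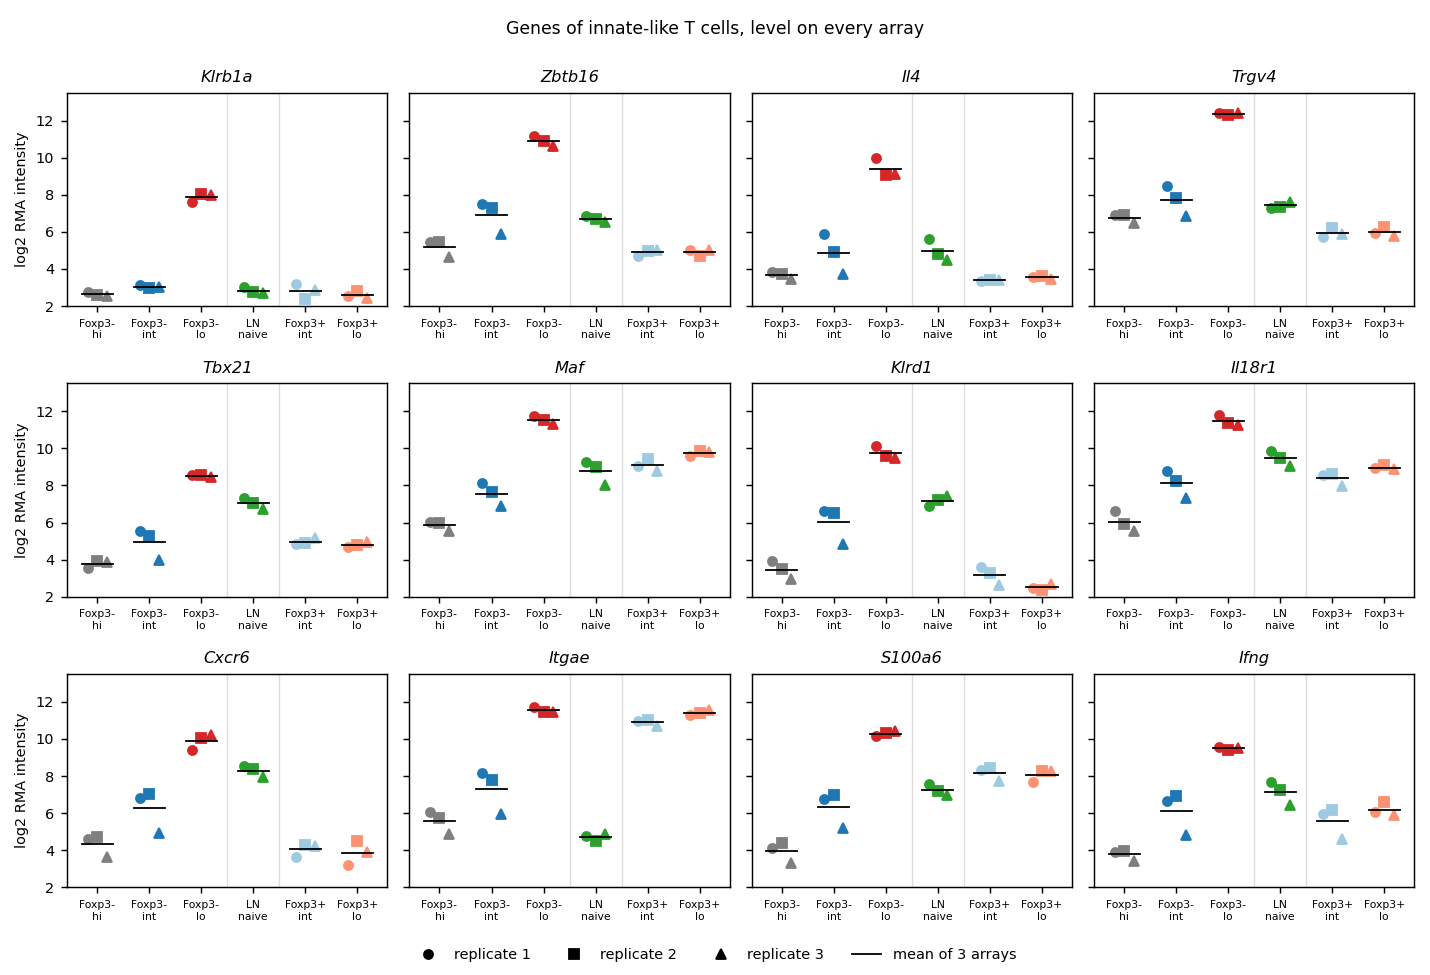
Levels (log2 RMA intensity, vertical axis) of 12 genes that rose, picked from several of the gene lists, on each array of 6 groups: Foxp3- CD24hi, CD24int and CD24lo thymocytes, lymph node naive T cells, and Foxp3+ CD24int and CD24lo thymocytes. Symbols are replicates and bars the mean of 3 arrays. In all 12 panels the 3 Foxp3- CD24lo arrays lie above the 3 CD24int arrays, which follows from picking genes that rose. List members that fell or did not pass, such as Eomes and Gata3, are not shown. In most panels replicate 3 is the lowest CD24int array.

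Promoters of 4 genes with large rises are shown because these genes stand for the receptor, cytokine and transcription factor groups. Each is the 250 bases before the start, on the gene's own strand, from RefSeq on GRCm38.p6: Klrb1a at chr6:128622935-128623184 (minus strand), Il4 at chr11:53618666-53618915 (minus), Tbx21 at chr11:97115332-97115581 (minus) and Ifng at chr10:118440796-118441045 (plus). Capitals mark matches, on either strand, to 6 motifs searched: the E-boxes CAGGTG and CAGCTG, the RUNX motif TGTGGT, the T-box motif AGGTGT (which can overlap CAGGTG), the NFAT motif GGAAAA and the GATA motif AGATAA.
Klrb1a: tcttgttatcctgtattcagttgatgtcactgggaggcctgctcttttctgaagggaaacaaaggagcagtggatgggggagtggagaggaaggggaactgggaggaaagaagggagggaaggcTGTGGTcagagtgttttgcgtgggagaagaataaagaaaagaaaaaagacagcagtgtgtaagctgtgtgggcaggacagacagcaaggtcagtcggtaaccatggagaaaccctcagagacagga
Il4: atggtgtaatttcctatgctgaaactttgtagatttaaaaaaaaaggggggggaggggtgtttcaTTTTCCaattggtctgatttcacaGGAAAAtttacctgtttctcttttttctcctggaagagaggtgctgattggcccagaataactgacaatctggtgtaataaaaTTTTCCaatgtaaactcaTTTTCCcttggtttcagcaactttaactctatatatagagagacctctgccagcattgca
Tbx21: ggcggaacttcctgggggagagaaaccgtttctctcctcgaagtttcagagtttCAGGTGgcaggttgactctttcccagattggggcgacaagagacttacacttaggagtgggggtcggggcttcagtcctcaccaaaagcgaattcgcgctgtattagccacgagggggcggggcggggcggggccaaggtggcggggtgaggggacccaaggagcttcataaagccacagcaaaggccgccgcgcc
Ifng: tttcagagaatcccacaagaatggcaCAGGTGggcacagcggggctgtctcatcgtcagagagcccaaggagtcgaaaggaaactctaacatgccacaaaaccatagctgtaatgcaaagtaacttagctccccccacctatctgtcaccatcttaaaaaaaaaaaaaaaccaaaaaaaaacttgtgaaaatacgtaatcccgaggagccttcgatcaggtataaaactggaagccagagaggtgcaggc

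The Klrb1a window held 1 RUNX match, that of Il4 held 4 NFAT matches, and those of Tbx21 and Ifng 1 CAGGTG each. A match describes letters and is no sign of binding. Of 18110 windows of measured genes (14453 genes with a window), 17.2% held CAGGTG, 12.8% CAGCTG, 11.7% TGTGGT, 10.9% AGGTGT, 19.0% GGAAAA and 7.4% AGATAA. In the 479 windows of 371 genes that rose at least 2-fold the shares were 22.5%, 15.2%, 14.4%, 8.56%, 18.8% and 7.1%, and in the 140 windows of 104 genes that fell at least 2-fold 16.4%, 22.1%, 9.29%, 12.9%, 15.0% and 5.71%, given here as descriptions without a test.

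Genes for transcription factors and signalling adaptors of innate-like lineages mostly rose: of 23 measured, 15 rose and 2 fell, with a median of 1.15. Over all genes 7.86% rose and 4.13% fell, the shares beside which this and the later list counts stand. Tbx21, which encodes T-bet, read 5.54, 5.27 and 4.00 in CD24int and 8.55, 8.57 and 8.45 in CD24lo (3.58 ± 0.26, adjusted p = 2.09e-10, and 3.11 without CD24int replicate 3). The lymph node naive arrays lay between these groups, at 6.71 to 7.33. Maf, a factor of interleukin 4 and interleukin 17 producing T cells, rose by 3.96 ± 0.43, and Sox13, a factor of gamma delta T cells, by 2.92 ± 0.21. Blk, a Src-family kinase of B cells and of interleukin 17 producing gamma delta T cells, rose by 2.40 ± 0.42. Slamf6, a receptor used in NKT cell selection, rose by 2.57 ± 0.29, its adaptor gene Sh2d1a by 0.87 ± 0.13, and Il2rb, Ikzf2, Plac8, Rora, Bhlhe40, Runx3, Id2 and Tox2 by 0.94 to 1.96.

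Not all members rose. Eomes, the T-box relative of Tbx21, read 6.29, 6.46 and 6.66 in CD24int and 5.32, 5.42 and 5.72 in CD24lo, a fall (-0.99 ± 0.18, adjusted p = 0.000369), and Slamf1 fell (-0.75 ± 0.10). Gata3 (0.11 ± 0.10, adjusted p = 0.645) and Egr2 (0.17 ± 0.16, adjusted p = 0.649) did not pass, with CD24int arrays of Gata3 at 9.25 to 9.37 and CD24lo arrays at 9.34 to 9.56. Outside the list, Ahr, the aryl hydrocarbon receptor gene, rose by 3.03 ± 0.20 (0.45 by its other probe set), and Myb, of the immature thymocyte list, rose by 1.47 ± 0.17. The list's counts were 15 and 2 without CD24int replicate 3 as well.

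Among killer cell lectin-like receptor genes, which encode activating and inhibitory receptors of NK cells and some T cells, 8 of 16 measured rose and 0 fell, with a median of 1.08. Klra5, of the Ly49 family, went from 6.71, 6.21 and 3.89 to 10.74, 10.35 and 9.90 (4.73 ± 0.47, adjusted p = 4.92e-08, and 3.87 without CD24int replicate 3). Klrd1, which encodes CD94, went from 6.64, 6.52 and 4.86 to 10.11, 9.60 and 9.50 (3.73 ± 0.39), and its partner gene Klrc1, for NKG2A, rose by 3.66 ± 0.25. The Klrd1 arrays did not overlap, while for Klra5 this was part of its choice as a largest rise. Klrk1, for NKG2D, rose by 2.37 ± 0.22, Klrb1f by 2.06 ± 0.46, Klra7 by 1.77 ± 0.15 and Klre1 by 1.61 ± 0.19. Klrc2, Klrb1b, Klra8 and Klrg1 stood at 0.11, 0.19, 0.29 and 0.03 and did not pass. Most of these probe sets are dim: only 1 of the 16 had a mean at or above that of the median gene. Members of the family are alike in sequence, and cross-hybridisation between them was not tested.

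Effector cytokine genes rose in 10 of 23 cases and fell in 0 (median 0.26). Ifng, for interferon gamma, read 6.63, 6.90 and 4.80 in CD24int and 9.57, 9.41 and 9.49 in CD24lo (3.38 ± 0.44, adjusted p = 3.43e-06, and 2.72 without CD24int replicate 3). Xcl1, a chemokine gene for cross-presenting dendritic cells, rose by 3.10 ± 0.46, Tnfsf14, for the ligand LIGHT, by 2.54 ± 0.23, Ccl5 by 2.02 ± 0.30 and Tnfsf11, for RANK ligand, by 1.77 ± 0.19. The type 2 cytokine gene Il13 rose by 1.40 ± 0.18, Il21 by 1.27 ± 0.22, Tnf by 0.67 and Il2 by 0.75. The Il2 call was lost without CD24int replicate 2 or replicate 3 or CD24lo replicate 3. Il17a (0.26 ± 0.22, adjusted p = 0.609) and Il5 (-0.10 ± 0.10, adjusted p = 0.675) did not pass. Without CD24int replicate 3, 9 of the 23 passed upwards.

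Granule and NK effector genes rose in 15 of 20 cases and fell in 2 (median 1.15). Cst7, which encodes cystatin F, an inhibitor of the proteases that activate granzymes, read 6.23, 6.33 and 5.41 and then 9.86, 10.00 and 10.33 (4.07 ± 0.22, adjusted p = 1.79e-12, and 3.78 without CD24int replicate 3). Cd160 rose by 3.17 ± 0.27, Nkg7 by 3.12 ± 0.37, Gzmb, for granzyme B, by 2.71 ± 0.33, Fasl by 2.55 ± 0.40 and Gzma by 1.80 ± 0.36. Lyst, a lysosomal trafficking gene, fell (-0.65 ± 0.16). The counts without CD24int replicate 3 were 14 and 2, and 1 fell without CD24lo replicate 1 or CD24int replicate 2.

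Receptors for cytokines split evenly, with 7 of 30 up and 7 down (median 0.04), against 7.86% up and 4.13% down of all genes. Those that rose include receptors through which innate-like cells respond to inflammatory cytokines: Il18r1 read 8.78, 8.22 and 7.34 and then 11.79, 11.37 and 11.24 (3.35 ± 0.40, adjusted p = 7.42e-07, and 2.97 without CD24int replicate 3), Il18rap rose by 2.78 ± 0.25, Il17rb, the receptor gene for interleukin 25, by 2.70 ± 0.34 and Il12rb1 by 2.22 ± 0.22. Il4ra fell while Il4 rose, from 9.29, 9.32 and 9.40 to 7.99, 8.18 and 8.33 (-1.17 ± 0.09, adjusted p = 1.98e-09). Ifngr2 (-1.09 ± 0.25) fell while Ifng rose, and Il6st (-1.06 ± 0.14), the shared receptor chain of the interleukin 6 family, fell too. Without CD24int replicate 3 the counts were 6 and 5, and with the block 10 and 8.

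On the chemokine receptor list, 8 of 21 genes rose and 3 fell (median 0.17). The list also holds S1pr1 and Gpr183, which are not chemokine receptors. Ccr10 read 5.58, 5.98 and 5.14 in CD24int and 8.91, 9.49 and 9.75 in CD24lo (3.82 ± 0.23, adjusted p = 8.66e-12, and 3.60 without CD24int replicate 3). Ccr2 rose by 3.63 ± 0.47, Cxcr6 by 3.62 ± 0.50 and Cxcr3 by 3.19 ± 0.38, all receptors of effector and tissue-resident cells, and Ccr4, Cx3cr1, Ccr8 and Gpr183 rose by 1.05 to 1.71. The listed genes that fell were Ccr7, which guides T cells to the thymic medulla and lymph nodes, S1pr1, and Ccr9, which early thymocytes carry (-0.80 ± 0.16). Ccr7 and S1pr1 are given again with the egress genes below, and are the same falls. The counts were the same without CD24int replicate 3.

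**Figure D2:**
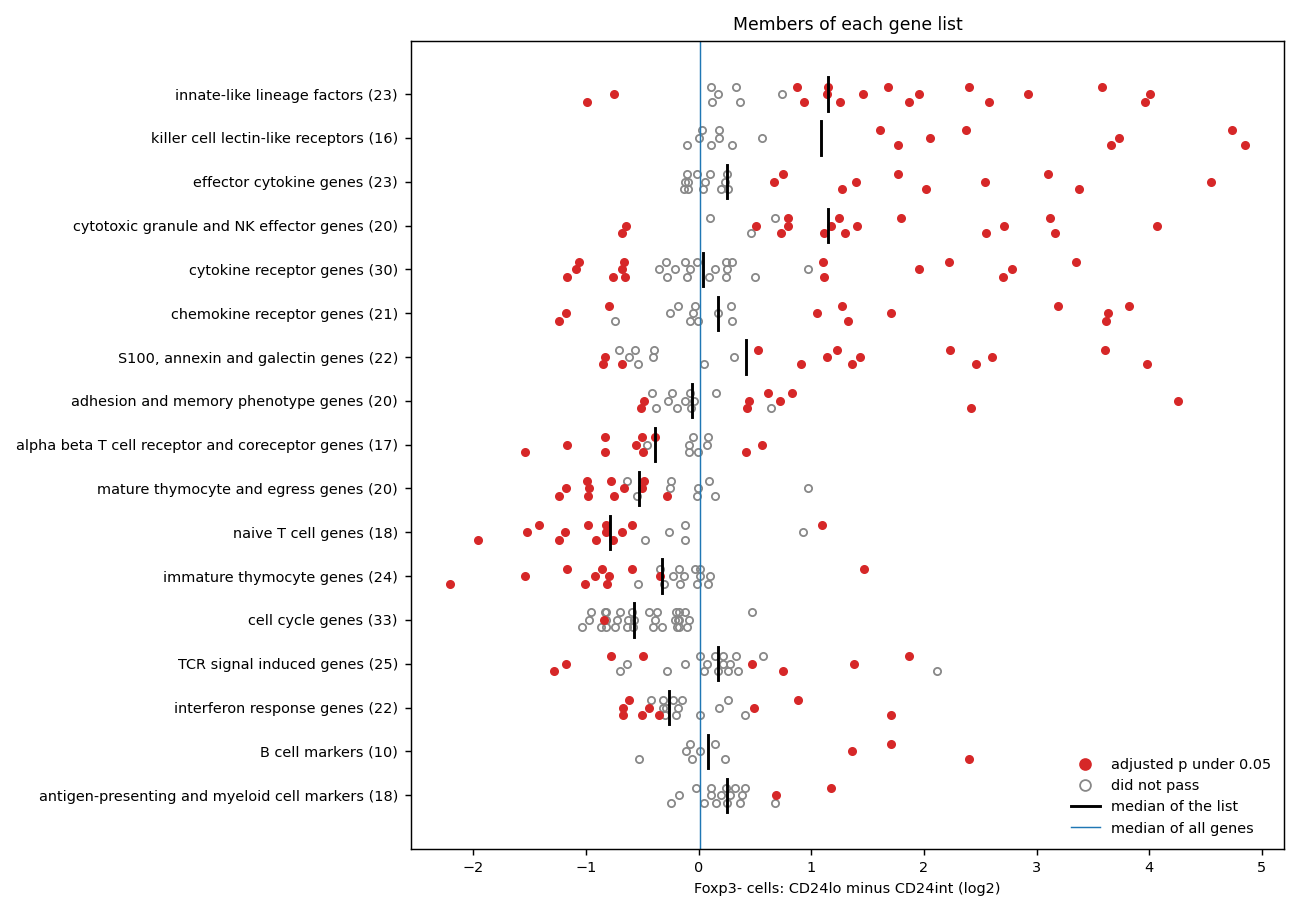
Differences of single genes between Foxp3- CD24lo and CD24int cells (log2, horizontal axis) for 17 gene lists, with the number of measured members in brackets. Filled points passed at an adjusted p under 0.05, open points did not, black bars are list medians and the blue line is the median of all genes (0.014). Innate-like, NK receptor and granule lists reach far to the right, while the naive, egress and coreceptor lists lie mostly to the left.

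Genes of mature, circulating T cells went the other way. On the list of mature thymocyte and egress genes 11 of 20 fell and 0 rose (median -0.53, and 11 and 0 without CD24int replicate 3). S1pr1, the receptor for sphingosine 1-phosphate that lets thymocytes leave, read 7.51, 7.45 and 6.71 in CD24hi, 9.24, 8.79 and 8.90 in CD24int, and 7.85, 8.01 and 7.54 in CD24lo. It thus rose in the first step (1.75, adjusted p = 2e-05) and fell in the second (-1.18 ± 0.23, adjusted p = 0.000733), with no overlap between CD24int and either neighbour. Lymph node naive cells read 9.77, 9.28 and 8.88, near the CD24int arrays. Ccr7 read 11.37, 11.47 and 11.36 in CD24int and 9.77, 10.50 and 10.23 in CD24lo (-1.24 ± 0.16, adjusted p = 1.93e-06). Foxo1 (-0.78 ± 0.11), whose product activates Klf2, Rasgrp2 (-0.98 ± 0.17) and Arhgef18 (-0.99 ± 0.14) fell. Klf2, the factor that activates S1pr1, read 12.12, 12.52 and 11.74 and then 10.90, 11.63 and 10.92 (-0.97 ± 0.32, adjusted p = 0.0463), a fall that did not pass after quantile normalization, with a pseudocount of 16, or without CD24int replicate 1 or replicate 2 or CD24lo replicate 1 or replicate 3.

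On the naive T cell list 12 of 18 genes fell and 1 rose (median -0.79, and 11 and 0 without CD24int replicate 3). Amigo2, a cell adhesion gene, read 8.82, 8.78 and 9.07 and then 6.21, 7.12 and 7.47 (-1.96 ± 0.25, adjusted p = 2.13e-06, with -0.18 by its other probe set). Bach2, a repressor that holds back effector programmes, read 10.89, 10.64 and 10.86 and then 9.02, 9.38 and 9.41 (-1.53 ± 0.12, adjusted p = 9.76e-10). Every CD24lo array of Bach2 was below every CD24int array, while for Amigo2 this was part of its choice as a largest fall. Tdrp (-1.41 ± 0.14), Nsg2 (-1.18 ± 0.18), Actn1 (-0.98 ± 0.14) and Lef1 (-0.76 ± 0.12), a factor of naive T cells and their precursors, fell. The gene that rose was Pde3b (1.10), a call lost without any 1 of the arrays other than CD24int replicate 1.

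Alpha beta T cell receptor and coreceptor genes fell in 8 of 17 cases and rose in 2 (median -0.39). Cd4, given above, was lower on all 3 CD24lo arrays (-0.83 ± 0.16, adjusted p = 0.0005). Cd8b1, for the CD8 beta chain, read 7.64, 7.94 and 8.48 and then 5.56, 6.65 and 7.22 (-1.54 ± 0.30), while Cd8a did not pass (0.08 ± 0.23). Cd2 (-1.16 ± 0.19), Lat (-0.55 ± 0.12), Cd5 (-0.50 ± 0.12), whose level follows receptor signal strength, and the beta chain segment Trbv13-2 (-0.83 ± 0.17) fell. Cd3e did not pass (-0.09 ± 0.10, adjusted p = 0.735), and the signalling genes Zap70 (0.56 ± 0.11) and Cd247 (0.42 ± 0.10) rose. The counts were 2 and 8 without CD24int replicate 3.

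**Figure D3:**
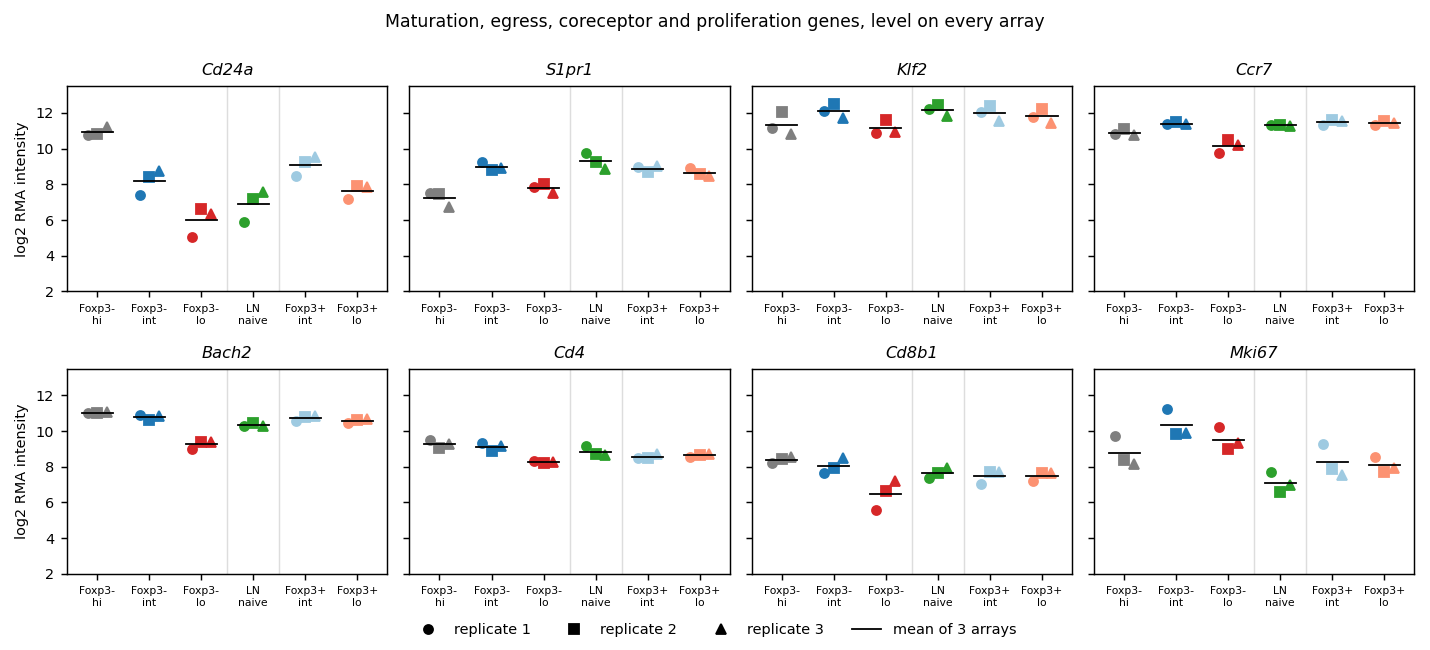
Levels (log2 RMA intensity, vertical axis) of 8 maturation, egress, coreceptor and proliferation genes on each array of the same 6 groups, with replicates as symbols and the mean of 3 arrays as a bar. S1pr1 and Klf2 have their highest Foxp3- thymocyte means at CD24int, Cd24a falls over the 3 gates, and Mki67 is higher in replicate 1 than in the other replicates of each Foxp3- thymocyte group.

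Immature thymocyte genes fell in 10 of 24 cases and rose in 1 (median -0.33, and 8 and 1 without CD24int replicate 3), with falls in Themis (-1.17 ± 0.12), an adaptor needed for positive selection, and Bcl6 (-1.01 ± 0.15). Rag1, for the recombinase, had already gone from 6.58 to 6.91 in CD24hi down to 3.44 to 3.87 in CD24int and did not pass in the second step (-0.17 ± 0.25). Of 33 cell cycle genes, 1 fell and 0 rose (median -0.57), against 4.13% and 7.86% of all genes. The gene that fell, Stmn1, a microtubule regulator of dividing cells, read 12.45, 12.28 and 12.46 and then 11.54, 11.36 and 11.76 (-0.84 ± 0.19, adjusted p = 0.003). Mki67 read 11.25, 9.86 and 9.89 in CD24int and 10.21, 9.00 and 9.33 in CD24lo, overlapping groups in which each CD24lo array was below the CD24int array of its own number (-0.82 ± 0.65, adjusted p = 0.558). With the replicate block, 12 cell cycle genes fell and 1 rose, against 7.15% and 11.6% of all genes.

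Genes of the S100, annexin and galectin families rose in 11 of 22 cases and fell in 3 (median 0.42), or 11 and 1 without CD24int replicate 3 and 11 and 5 with the block. S100a6, a calcium-binding protein gene of activated and memory T cells, read 6.79, 6.96 and 5.20 and then 10.16, 10.31 and 10.41 (3.98 ± 0.50, adjusted p = 2.03e-06, and 3.42 without CD24int replicate 3). S100a4 rose by 3.60 ± 0.49, Ahnak by 2.60 ± 0.27, Lgals3 by 2.46 ± 0.55 and Capg by 2.23 ± 0.11. On the adhesion and memory list 7 of 20 rose and 2 fell (7 and 5 after quantile normalization and with the block, 1 down without CD24int replicate 3 or CD24lo replicate 2). There Itgae, for the CD103 integrin chain that binds E-cadherin on epithelium, read 8.15, 7.77 and 5.94 and then 11.71, 11.43 and 11.47 (4.25 ± 0.42, adjusted p = 5.56e-08, and 3.58 without CD24int replicate 3). Itga1 rose by 2.42 ± 0.23 and Cd44, a memory marker, by 0.83 ± 0.16, whereas Itgb7, for the partner chain of CD103, fell (-0.48 ± 0.11).

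T cell receptor induced genes rose in 4 of 25 cases and fell in 4 (9 and 6 with the block), with Nr4a1, an immediate response gene, at -0.78 ± 0.15. Members of this list ran from -1.28 to 2.12 (median 0.17). Over all genes 7.86% rose and 4.13% fell, or 11.6% and 7.15% with the block. Interferon response genes rose in 3 of 22 and fell in 6 (2 and 9 after quantile normalization, and 3 down without CD24int replicate 1 or CD24lo replicate 2). Survival and death genes rose in 5 of 19 and fell in 5, with 3 down without CD24int replicate 3 or CD24lo replicate 1 or replicate 2, 5 and 7 with the block, and 2 and 6 without dim genes. Among those that fell was the survival gene Bcl2 (-0.91 ± 0.14), and the members of the list ran from -0.91 to 2.55 (median -0.18).

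Ranked in the same way as the rises, the largest falls after Cd24a were Tubb2b, Tmcc3, Amigo2, Tmie, Car2, Chl1, H2-Ob, Capn3, Cnn3, Ift80, Als2cl, Arhgap20, Ccdc88a and Gpr83, from -2.17 to -1.68 on the log2 scale, smaller in size than the 15 largest rises. Tmcc3 read 8.47, 8.18 and 8.42 and then 6.01, 6.66 and 6.38 (-2.01 ± 0.17, adjusted p = 3.48e-09). Tmie read 8.66, 8.56 and 8.54 and then 6.24, 6.91 and 6.78 (-1.95 ± 0.13, adjusted p = 6.99e-11). H2-Ob, for a chain of the MHC class II related protein that modulates peptide loading, read 9.72, 9.47 and 9.61 and then 7.41, 7.82 and 8.05 (-1.84 ± 0.15). Car2, for carbonic anhydrase, fell by 1.87 (SE 0.18). The ranking took only genes without overlap between the groups.

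As genes lie along the chromosome, in RefSeq order on GRCm38.p6, rises were uneven within clusters, which were chosen after their values were seen. Over all genes 7.86% rose and 4.13% fell. Many of the calls below, those of the Klr genes among them, were already counted in the lists above. In the NK gene complex 34 genes were measured, and 8 of 15 Klr genes rose, against 1 of 19 others (Gabarapl1, 0.69), of which Clec2i fell (-0.99 ± 0.19). The calls of Gabarapl1, Kif3a and Il1r1 were each lost without some single arrays, CD24int replicate 3 among them for Gabarapl1 and Il1r1. At the type 2 cytokine locus Il4, Il13 and Kif3a (0.63) passed, and Rad50 (0.14) and Il5 between or beside them did not. Il18r1, Il18rap and Il1r1 (1.10) rose among 5 genes of the interleukin 1 and 18 receptor cluster. In the chemokine receptor cluster, Cxcr6 and Ccr2 rose, Ccr9 fell, and the other 5 of 8 genes did not pass. Of 8 Gimap genes, which encode GTPases that support lymphocyte survival, 6 fell, Gimap7 by the largest amount (-1.34 ± 0.14). Within the S100 cluster, S100a4 and S100a6 were the only 2 of 10 measured genes to pass.

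**Figure D4:**
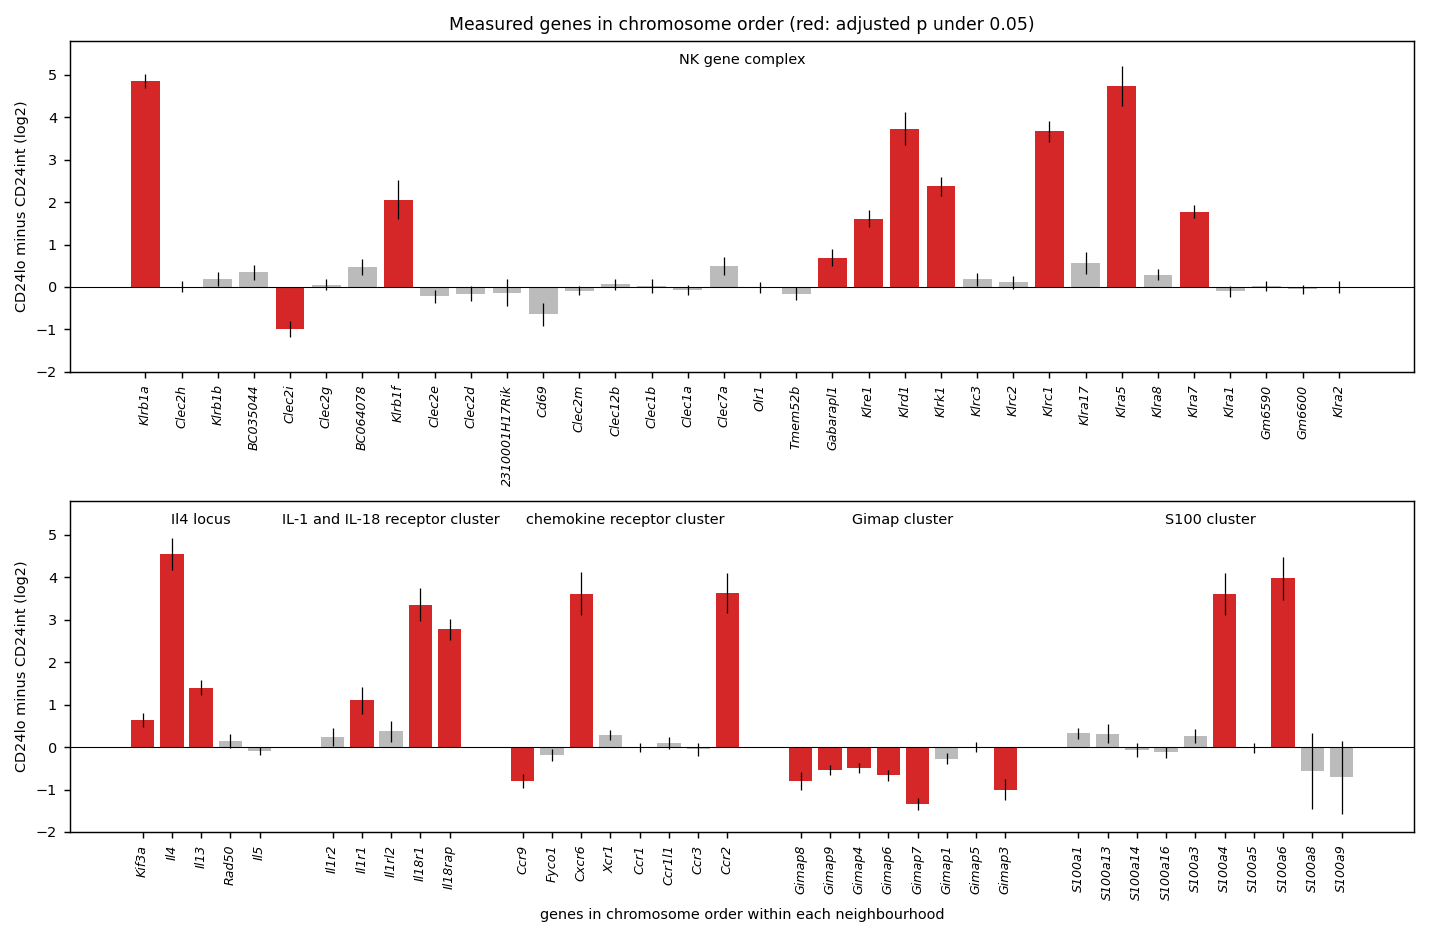
Difference between Foxp3- CD24lo and CD24int cells (log2, vertical axis) for measured genes in chromosome order, in the NK gene complex (upper panel) and 5 smaller clusters (lower panel). Red bars passed at an adjusted p under 0.05 and lines are 1 SE. Klr genes that rose lie next to genes near 0, and 6 of 8 Gimap genes are below 0 and red, where 4.13% of all genes fell.

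Markers of other cell types were read in the same arrays, where 7.86% of all genes rose and 4.13% fell. B cell markers rose in 3 of 10 cases and fell in 0: Blk, which is also on the innate-like list, Bank1 (1.71 ± 0.24) and Ighm (1.36 ± 0.28), whereas Cd79a, the B cell receptor subunit gene, did not pass (-0.11 ± 0.17) and read 3.86 to 4.60 on the 6 arrays. Summed over the list, B cell marker intensity was 457 to 575 in CD24int and 1030 to 1469 in CD24lo. Of 18 markers of antigen-presenting and myeloid cells, Fcer1g (1.18 ± 0.24), which T and NK cells with innate features also express, and Fcgr3 (0.69, lost without CD24lo replicate 3 or CD24int replicate 1) rose, with sums of 1192 to 1867 and 1605 to 2324. Among CD8 T cell markers 3 of 6 rose and 2 fell, with Nkg7 and Runx3 up and Cd8b1 and Eomes down as given above. Double-positive thymocyte markers fell in 2 of 10 cases (sums 1146 to 1392 and 824 to 980), or 1 without CD24int replicate 1 or replicate 3 or CD24lo replicate 1 or replicate 2. Of 10 thymic epithelium markers, Cdh1, for E-cadherin, rose (3.39 ± 0.37), and Epcam did not pass (-0.72 ± 0.28, adjusted p = 0.109). None of 5 erythroid or 8 liver genes passed. The part of these cell types in the results was not tested.

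Treg markers rose in 4 of 13 cases and fell in 3 (4 and 5 with the block); Foxp3 (adjusted p = 0.997) and Il2ra (-0.10 ± 0.20) did not pass. Nrp1, which thymic Tregs and NKT cells share, read 5.49, 5.28 and 4.86 and then 8.17, 8.02 and 8.44 (3.00 ± 0.23, adjusted p = 5.95e-10). Ikzf2 (1.87 ± 0.17), Capg and Izumo1r (0.72) also rose, and Gpr83 (-1.68 ± 0.20), Ikzf4 (-1.33 ± 0.12) and Tnfrsf4 (-1.19 ± 0.18), for the costimulatory receptor OX40, fell.

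The same CD24 step in Foxp3+ thymocytes gave 3 passing genes of 18194 (0.0165%): Prg4 (1.53) and Arrdc4 (0.90) rose (0.011%) and Fibcd1 fell (-1.05, 0.0055%), the last 2 named after their values were seen. The counts up and down were 17 and 6 with the replicate block, 12 and 4 with the pseudocount, 0 and 0 with the compared groups alone, and 8 and 2 without CD24hi replicate 3 of the Foxp3- cells. At an unadjusted p under 0.05, 819 genes passed in Foxp3+ cells and 3915 in Foxp3- cells. The difference between the classes was itself tested, and 905 genes passed (4.97%), 649 with the larger value in Foxp3- cells (3.57%) and 256 with the smaller (1.41%). Genes that rose at least 2-fold in Foxp3- cells had a median difference of 0.16 in the Foxp3+ cells, which are separate arrays, and genes that fell at least 2-fold had -0.15. Across all genes the differences of the 2 classes correlated at r = 0.23, a description over genes that are not independent.

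The 6 largest differences between the classes, with no added constant, were led by Klrb1a, at 5.04 ± 0.24 (adjusted p = 8.32e-13). Its Foxp3+ means were 2.80 at CD24int and 2.61 at CD24lo, so the size rests on very low levels, and with the pseudocount it was 3.45, below the other 5. These were Klra5 (4.99 ± 0.66), Trgv1 (4.66 ± 0.65), App (4.64 ± 0.61), Trgv4 (4.61 ± 0.58) and Ctla2b (4.56 ± 0.47). The opposite sign was largest for Tmie (-2.07 ± 0.18), Capn3 (-1.98 ± 0.42), H2-Ob (-1.90 ± 0.21), Tubb2b (-1.82 ± 0.50), F13a1 (-1.81 ± 0.31) and Ift80 (-1.77 ± 0.19). Zbtb16 (4.00 ± 0.55) and Il4 (4.40 ± 0.53) also passed. Cd24a did not (-0.75 ± 0.60, adjusted p = 0.688): it read -1.45 in Foxp3+ cells (adjusted p = 0.46). Itgae shows a difference of another kind, since its Foxp3+ means were 10.92 and 11.41, against 5.94 to 8.15 and 11.43 to 11.71 on the Foxp3- arrays. By list, 11 of 23 innate-like factors passed upwards and 1 downwards, as did 7 and 0 of 16 killer cell lectin-like receptors, 11 and 0 of 20 granule genes, 0 and 10 of 18 naive T cell genes and 0 and 6 of 20 egress genes. Over all genes 3.57% passed upwards and 1.41% downwards. The contrast holds the same Foxp3- differences as the step itself, so these counts partly repeat the list counts above.

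**Figure D5:**
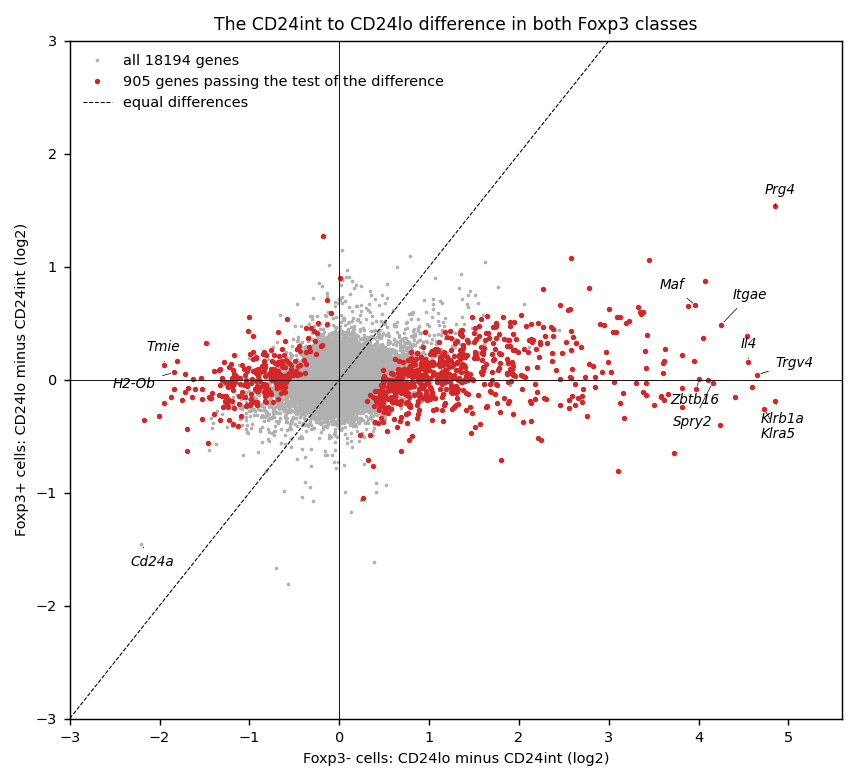
The CD24int to CD24lo difference of 18194 genes in Foxp3- cells (horizontal axis, log2) against Foxp3+ cells (vertical axis, log2). Red points are the 905 genes that passed the test of the difference between the classes, and the dashed line marks equal differences. Red points spread along the horizontal axis, up to 4.85 for Klrb1a and Prg4 with no added constant, and Prg4 alone of the labelled rising genes is above 1 on the vertical axis.

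The second step was also set against the first, CD24hi to CD24int, in a contrast that accounts for the shared CD24int arrays. In it 1028 genes passed (5.65%), 695 upwards (3.82%) and 333 downwards (1.83%), or 1254 and 730 with the replicate block, and upward calls were 67.6% of the total, or 56.1% after quantile normalization. Counts here leaned on single arrays: 423 passed upwards without CD24int replicate 2, and 205 and 209 downwards without CD24int replicate 1 and replicate 3. Ctla2a, related to cathepsin inhibitors, read 7.56, 7.57 and 8.29 in CD24hi, 6.68, 6.68 and 6.08 in CD24int and 9.79, 9.82 and 10.07 in CD24lo, falling and then rising (difference of the steps 4.74, adjusted p = 1.93e-08). Il17rb had the same shape (4.68), from 8.85 to 8.96 in CD24hi through 6.54 to 7.43 to 9.03 to 10.27. Prg4 (4.50), Klrb1a (4.44), Amph (3.75) and Ahr (3.72) completed the largest 6 upwards with no added constant. Amigo2 (-3.28), S1pr1 (-2.93), Tmie (-2.72), Elovl7 (-2.43), Kntc1 (-2.42) and Als2cl (-2.40) were the largest downwards, Kntc1 with an adjusted p of 0.0476 that was lost without most single arrays, and for Amigo2 the 3 groups read 7.23 to 7.82, 8.78 to 9.07 and 6.21 to 7.47. Of the lists, 0 naive T cell genes passed upwards and 13 downwards, and of egress genes 0 and 10.

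Genes that rose at least 2-fold had median levels of 5.44 to 5.55 on the CD24hi arrays, 5.50 to 5.94 in CD24int, 7.52 to 7.67 in CD24lo and 5.98 to 6.20 in lymph node naive cells. For genes that fell at least 2-fold the medians were 8.30 to 8.42, 8.17 to 8.41, 6.71 to 7.03 and 7.55 to 7.66. The genes were chosen by the difference between the CD24int and CD24lo arrays, so those 2 sets of medians describe the choice. The CD24hi and lymph node arrays did not enter that difference. They did enter the shared estimate of the spread and the choice of each gene's brightest probe set.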

How the data were processed

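RNA of 27 samples in 9 groups of 3 was measured on 3' expression arrays. Per the submitters' processing notes the authors summarised the intensity values by RMA, which corrects background and normalises arrays; its version is not given in the sources used here. They ran from 3.55 to 24083 and were taken as linear and put on a log2 scale with no added constant. Of 45101 probe sets, 34958 had 1 gene symbol, 932 several and 9211 none. Each gene is its brightest single-symbol probe set, which gave 18194 genes. Symbols come from GEO's platform annotation, set against RefSeq (0 changed).

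Comparisons used limma 3.58.1 in R 4.3.3, a model of 9 group means on 27 arrays with empirical Bayes moderation (prior df 5.98), tested on simulated data first. P-values are two-sided and adjusted by Benjamini-Hochberg over 18194 genes, and a gene passed under 0.05. Values after ± are standard errors (n = 3 arrays a group), typically 0.15 for this step, 0.21 for the difference between Foxp3 classes and 0.25 for that between steps; the number of arrays limits the precision. No detection calls were used. Replicates carry the first digit of the description codes. In CD24int and CD24lo same-numbered arrays deviated together (r = 0.389 to 0.538), so the block is given beside many of the counts it moves, though no label says what the digit marks. Genes named are Klrb1a, Zbtb16, Il4, Trgv4, Cd24a and Foxp3, the 15 largest rises and falls among passing genes with no overlap, members of the lists with the counts of the whole list, and the 6 largest differences each way in the other contrasts. The comparison and the lists were chosen with earlier results of these data known. Alternatives were the replicate block, quantile normalization, no dim genes, averaging a gene's probe sets, the compared groups alone, a pseudocount of 16, a trended prior and leaving out single arrays.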

Additional observations from a re-analysis of the deposited data

Results flagged for a closer look

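The CD24int to CD24lo step differed between Foxp3- and Foxp3+ thymocytes in 905 genes by limma's test of the difference itself. The 6 largest differences in each direction, Foxp3- minus Foxp3+ on the log2 scale with no added constant, were Klrb1a 5.04, Klra5 4.99, Trgv1 4.66, App 4.64, Trgv4 4.61 and Ctla2b 4.56, and Tmie -2.07, Capn3 -1.98, H2-Ob -1.90, Tubb2b -1.82, F13a1 -1.81 and Ift80 -1.77. The Tubb2b difference had an adjusted p of 0.0302 and was not called without CD24lo replicate 1 or CD24int replicate 2 or replicate 3 of the Foxp3- cells, nor without 3 single Foxp3+ arrays, nor with the pseudocount or the compared groups alone. The Capn3 difference was not called when its probe sets were averaged. Groups of 3 arrays were not screened for outlying samples.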

How the results depend on the processing

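In the Foxp3- step and in the differences between classes and between steps, upward calls outnumbered downward calls under every alternative. Among the gene differences checked, none that passed changed sign. The balance of some lists did turn: Treg markers were 4 up and 3 down, but 4 and 5 with the block. A set of 31 genes was followed: Klrb1a, Zbtb16, Il4, Trgv4, Cd24a, Foxp3 and the largest rises and falls. The 30 of these that passed between CD24int and CD24lo did so under every alternative run that could test them. These 30 are the largest passing differences without overlap on these same arrays, so the choice itself favoured keeping their calls. Without dim genes, 22 of the 31 remained. Other genes named in the text did not all keep their calls. Those of Klf2, Il2, Pde3b, Fcgr3, Gabarapl1, Kif3a, Il1r1 and Kntc1 were each lost without some single arrays. Those of Tox2 and Cd247 in the CD24int to CD24lo step were lost when probe sets were averaged. With the replicate block 1300 genes fell in that step. For the difference between the Foxp3 classes the same-numbered arrays did not all deviate together (lowest r = -0.0465), and the block gave 1019 up and 514 down; for the difference between the steps (lowest r = 0.14) it gave 1254 up and 730 down. In the Foxp3+ step it gave 17 up and 6 down. Counts there were small and moved: 5 and 3 with quantile normalization, 6 and 4 when all probe sets of a gene were averaged, 12 and 4 with the pseudocount, 0 and 0 with the compared groups alone, 0 down without dim genes; these alternatives were chosen after seeing the data. Leaving out 1 array gave 1076 to 1420 up and 540 to 749 down in the Foxp3- step, 527 to 641 and 176 to 262 for the classes, 423 to 671 and 205 to 377 for the steps, and 1 to 8 and 0 to 2 in the Foxp3+ step, where the 8 and 2 came without CD24hi replicate 3 of the Foxp3- cells. The causes were not tested. Levels of dim probe sets, which include most killer cell lectin-like receptors, have no detection call behind them.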
